A study of Mus musculus with 8 samples.

Results

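The dendritic cell genes and the XCL1-XCR1 axis were followed here as 9 genes, all found by probe name among the 750 immune-related genes of a NanoString nCounter mouse panel. They were Itgax, Flt3, Flt3l, Xcl1, Xcr1, Lamp3, Cd83, Cd1d1 and Cd207. The tissue was whole peritoneal tumor from male wild-type C57BL/6 mice, 7 to 8 weeks old when purchased, that had received 500000 MC38 cells, a mouse colon cancer line, into the peritoneal cavity. From day 7 the mice were injected intraperitoneally with RR-CDA (also called MIW815 or ADU-S100), a cyclic dinucleotide that activates STING, or with the same volume of PBS. By the schedule of the study, RR-CDA was given as 2 injections of 15 µg at an interval of 3 days, and tumors were collected 10 days after the first. The labels name the tissue colon, although the tumors grew in the peritoneum, and the data were pooled from 2 experiments without the experiment of each tumor, so no value within an experiment could be given.

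There were 4 tumors per group, named PBS 1 to 4 and STING 1 to 4. In this assay color-coded probes bound to RNA are counted without amplification, and the panel counts summed to 241724 to 403150 in the PBS tumors (median 293612) and to 241506 to 414698 in the STING tumors (median 308126). PBS 2 and PBS 4 differed by less than sampling noise over the 353 genes that averaged 20 to 300 counts (chi-square per degree of freedom 0.393, and 5.58 to 12.7 in the other 11 pairs within a group). They were averaged and counted as 1 sample, which left n = 3 against n = 4. The labels do not say that the tumors came from separate mice, so p-values measure the spread between these samples only. A normalized count is a count divided by the housekeeping scale of its sample, and a gene was taken as above background where its count lay more than 2 SD above the mean of the 8 negative controls. That limit averaged 8.45 counts, and 613 panel genes and 6 of the 9 genes, Itgax, Flt3, Flt3l, Xcl1, Cd83 and Cd1d1, had a mean count above it, Itgax through the STING tumors alone. Where the counts of a list are summed or its gene with the highest counts is named, this describes counts and not amounts of RNA.

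Dendritic cells take up antigen and present it to T cells. Their precursors depend on the receptor Flt3 and its ligand Flt3l, and many of the mature cells carry CD11c, the product of Itgax. XCL1 is a chemokine made mainly by natural killer (NK) cells and activated CD8+ T cells, and its receptor XCR1 marks the dendritic cells that are specialized in cross-presentation, by which they show tumor antigen to CD8+ T cells. STING activation leads to type I interferon, which acts on genes that often carry an interferon-stimulated response element (ISRE) near the start.

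Windows of 250 bases before to 50 bases after the annotated start were read from RefSeq (GRCm38.p6) for 7 of the 9 genes, with Cd83 and Cd1d1 not matched. Each window was searched on both strands for the ISRE letters GAAANNGAAA, for the interferon-gamma activated site (GAS) TTCNNNGAA and for the ETS letters GAGGAAGT. The ISRE letters were in 2 of the 7 windows, those of Flt3l and Lamp3, against 3.44% of all 32851 windows. The GAS letters were in the Lamp3 window alone (8.30% of all windows) and the ETS letters in none of the 7 (3.20% of all windows). In Lamp3 the GAS and ISRE matches began 181 and 166 bases before the start (positions -181 and -166) and did not overlap. The windows of Itgax and Xcl1, the 2 members with the largest differences that were matched, and of Flt3l, whose match lies at the start, are shown. Capitals mark the ISRE match, which reads on the strand opposite to the gene, beginning at position -10 counted from the annotated start. The Itgax window lies at chr7:128129300-128129599 on the plus strand, that of Xcl1 at chr1:164935473-164935772 on the minus strand and that of Flt3l at chr7:45136383-45136682 on the minus strand.
Itgax: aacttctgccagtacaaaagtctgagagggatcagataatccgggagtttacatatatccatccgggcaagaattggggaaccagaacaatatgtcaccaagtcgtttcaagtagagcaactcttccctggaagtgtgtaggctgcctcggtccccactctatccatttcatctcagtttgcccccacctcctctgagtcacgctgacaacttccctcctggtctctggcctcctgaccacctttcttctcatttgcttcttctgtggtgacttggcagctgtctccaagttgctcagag
Xcl1: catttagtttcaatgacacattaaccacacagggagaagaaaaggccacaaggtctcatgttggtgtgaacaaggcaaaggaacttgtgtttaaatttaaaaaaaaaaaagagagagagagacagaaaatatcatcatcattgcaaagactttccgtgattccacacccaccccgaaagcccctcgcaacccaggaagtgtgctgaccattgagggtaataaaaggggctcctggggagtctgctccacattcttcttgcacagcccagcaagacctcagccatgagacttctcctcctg
Flt3l: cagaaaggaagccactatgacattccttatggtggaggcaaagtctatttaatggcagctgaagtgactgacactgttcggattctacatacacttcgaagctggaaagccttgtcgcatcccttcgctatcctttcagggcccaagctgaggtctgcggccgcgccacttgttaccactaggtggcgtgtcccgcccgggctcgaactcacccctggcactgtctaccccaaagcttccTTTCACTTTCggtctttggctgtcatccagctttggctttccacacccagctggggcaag
A match describes letters only, and whether any factor bound there was not measured.

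In the tumors treated with the STING agonist, Itgax, Xcl1, Cd83 and Cd1d1 were higher than in the PBS tumors, with mean folds of 4.25, 3.12, 2.93 and 1.69, and in each of the 4 genes every STING sample lay above every PBS sample on the housekeeping scale. Flt3 and Flt3l had folds of 0.762 and 0.958, and Xcr1, Lamp3 and Cd207 had mean counts under background. None of the 9 genes had an adjusted p under 0.05 in edgeR's quasi-likelihood test with Benjamini-Hochberg adjustment over the panel, and neither did any other gene of the 750 (0%, lowest adjusted p = 0.171), where the Wald test of DESeq2 called 2 of the 9 and 52 of the panel. Without adjustment, 4 of the 9 passed a p of 0.05 as higher, against 133 panel genes (17.7%), and 0 as lower, against 10 (1.33%). The groups did not overlap in 4 of the 9 as higher, against 126 panel genes (16.8%), and in 0 as lower, against 11 (1.47%). The median log2 fold change of the 9 genes was 0.44 and that of the panel 0.21. The median of the 9 was the value of Xcr1, a gene under background, so it says little about the set. The panel median moved to -0.021 with TMM scaling, where 87 genes passed without adjustment as higher and 40 as lower, and the log2 fold changes of Itgax, Xcl1, Cd83 and Cd1d1 were then 1.80, 1.41, 1.27 and 0.51. On that scale the groups overlapped in Cd83 and Cd1d1, and Cd1d1 did not pass without adjustment.

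**Figure D1:**
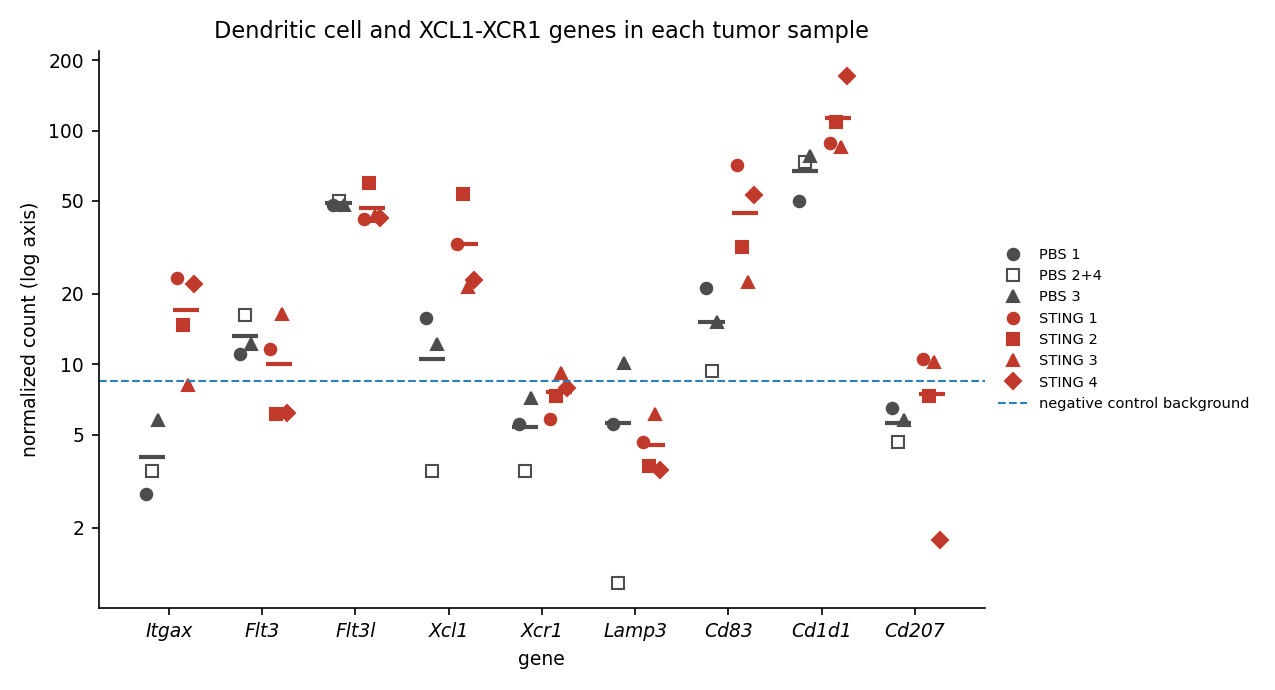
Normalized counts of the 9 genes (log axis) in the 3 PBS samples (gray, with the mean of PBS 2 and PBS 4 as an open square) and the 4 STING samples (red); short lines are group means and the dashed line is the negative control background of 8.45 counts. Itgax, Xcl1, Cd83 and Cd1d1 show no overlap between the groups, while most values of Xcr1, Lamp3 and Cd207 lie under the line.

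Itgax encodes CD11c, the integrin chain used as a general dendritic cell marker that is also found on some macrophages and NK cells. Its raw counts were 3, 3, 8 and 3 in PBS 1 to 4 and 20, 12, 8 and 25 in STING 1 to 4. Every PBS tumor and STING 3 lay below the background of its own sample, and PBS 3 and STING 3 had the same count of 8, each with an exact 95% Poisson interval of 3.45 to 15.8 that covers counting error only. The normalized counts were 2.78, 3.50 and 5.76 in PBS 1, the PBS 2 and 4 mean and PBS 3, and 23.4, 14.7, 8.18 and 22.1 in STING 1 to 4. STING 1 and STING 4 were the highest and STING 3 was close to PBS 3, so the groups separated there only after scaling. The mean went from 4.01 ± 1.56 (SD, n = 3) to 17.1 ± 7.05 (SD, n = 4), a log2 fold change of 2.02 (SE 0.49, edgeR, Benjamini-Hochberg adjusted p = 0.171). Because the PBS values lay under background, the size of the fold depended on how background was treated, with log2 values of 3.11 after subtraction of the negative control mean and 0.61 in limma with a pseudocount of 20. In bulk tumor RNA, more cells of a type and more RNA per cell cannot be told apart, nor can fewer cells and less RNA per cell, for Itgax as for every other gene here.

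Flt3 is the receptor tyrosine kinase of dendritic cell precursors, and Flt3l is the growth factor that binds it. Flt3 had raw counts of 12, 13, 17 and 14 in PBS 1 to 4 and of 10, 5, 16 and 7 in STING 1 to 4. Normalized, it was lowest in STING 2 (6.11) and STING 4 (6.18) and highest in STING 3 (16.4), and the STING values spanned those of the PBS group. The mean was 13.2 ± 2.74 (SD, n = 3) in PBS and 10.1 ± 4.93 (SD, n = 4) in STING tumors, a log2 fold change of -0.38 (SE 0.42, edgeR, Benjamini-Hochberg adjusted p = 0.698). Flt3l had normalized counts of 48.1, 50.1 and 48.3 in the PBS samples and of 42.0, 59.9, 42.9 and 42.4 in STING 1 to 4. The PBS samples were nearly equal, and 3 of the 4 STING samples lay below them and STING 2 above. The means were 48.8 ± 1.12 (SD, n = 3) and 46.8 ± 8.74 (SD, n = 4), a log2 fold change of -0.063 (SE 0.26, edgeR, Benjamini-Hochberg adjusted p = 0.926). The sign of Flt3 and of Flt3l was negative in every alternative run, and with samples left out Flt3 went from -0.72 (without STING 3) to -0.18 (without STING 4) and Flt3l from -0.20 (without STING 2) to -0.016 (without STING 1).

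Xcl1 is the chemokine and Xcr1 its receptor on cross-presenting dendritic cells. The raw counts of Xcl1 were 17, 3, 17 and 3 in PBS 1 to 4 and 28, 44, 21 and 26 in STING 1 to 4. Its normalized counts were 15.7, 3.50 and 12.2 in the PBS samples and 32.7, 53.8, 21.5 and 22.9 in the STING samples. The near-identical pair PBS 2 and PBS 4 lay under background, STING 2 was the highest, and the groups did not overlap. The mean went from 10.5 ± 6.30 (SD, n = 3) to 32.7 ± 14.9 (SD, n = 4), a log2 fold change of 1.59 (SE 0.54, edgeR, Benjamini-Hochberg adjusted p = 0.198), and 1.22 with PBS 2 and PBS 4 left out (adjusted p = 0.311, edgeR). In the Wald test of DESeq2 on the same scale, Xcl1 passed with 1.60 (adjusted p = 0.0384), while in the methods' t-test it did not pass without adjustment. Xcr1 had raw counts of 6, 2, 10 and 4 in PBS 1 to 4 and of 5, 6, 9 and 9 in STING 1 to 4. None of the PBS tumors and 2 of the STING tumors exceeded the background of their sample, so a difference in Xcr1 was not detectable at this depth. The normalized means were 5.42 ± 1.86 (SD, n = 3) and 7.58 ± 1.39 (SD, n = 4), with a log2 fold change of 0.44 (SE 0.37, edgeR, Benjamini-Hochberg adjusted p = 0.616). It was 0.71 without PBS 3 and 0.24 with PBS 2 and PBS 4 left out.

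Cd83 and Lamp3 are markers of mature dendritic cells, and Cd83 is also made by activated lymphocytes. Cd83 had raw counts of 23, 9, 21 and 6 in PBS 1 to 4 and of 61, 26, 22 and 60 in STING 1 to 4. Normalized, it stood at 21.3, 9.32 and 15.1 in the PBS samples and at 71.2, 31.8, 22.5 and 52.9 in the STING samples. STING 1 and STING 4 were the highest, as for Itgax, and STING 3 lay just above PBS 1. The mean went from 15.2 ± 5.98 (SD, n = 3) to 44.6 ± 21.9 (SD, n = 4), a log2 fold change of 1.53 (SE 0.49, edgeR, Benjamini-Hochberg adjusted p = 0.185). The Wald test of DESeq2 gave 1.54 and called it (adjusted p = 0.0297), while in the methods' t-test it did not pass without adjustment. With TMM scaling, the size factors of DESeq2 or the total count, the Cd83 groups overlapped. Lamp3 had raw counts of 1 to 14 in the PBS tumors and of 3 to 6 in the STING tumors, and 1 of the 8 tumors, PBS 3, exceeded its background. Its log2 fold change was -0.40 (SE 0.57, edgeR, Benjamini-Hochberg adjusted p = 0.787), and it turned to 0.34 without PBS 3 and went to -0.80 with PBS 2 and PBS 4 left out.

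Cd1d1 encodes CD1d, which presents lipids to natural killer T (NKT) cells, and Cd207 encodes langerin, a lectin of Langerhans cells and some other dendritic cells. Cd1d1 had raw counts of 54, 72, 108 and 53 in PBS 1 to 4 and of 76, 89, 83 and 194 in STING 1 to 4. Its normalized counts were 49.96, 73.4 and 77.8 in the PBS samples and 88.8, 109, 84.8 and 171 in the STING samples. Every tumor was above background, STING 4 was the highest, and STING 3 was close to PBS 3. The mean went from 67.1 ± 14.98 (SD, n = 3) to 113 ± 39.9 (SD, n = 4), a log2 fold change of 0.76 (SE 0.31, edgeR, Benjamini-Hochberg adjusted p = 0.234). Without STING 4 it was 0.49 (adjusted p = 0.495, edgeR), and without PBS 1 it was 0.59 (adjusted p = 0.444, edgeR), and the unadjusted p then missed 0.05, as it did without STING 2 and without PBS 2 and PBS 4. It also missed 0.05 with TMM scaling, the size factors of DESeq2, the total count and positive control scaling, and in the methods' t-test. Under each of those 4 scalings the Cd1d1 groups overlapped. The sum of the hepatocyte markers was also highest in STING 4, although Lbp among them was highest in PBS 3 (166 normalized counts, against 136 in STING 4). The 14 hepatocyte markers on the panel summed to 1859 normalized counts there and to 145 to 309 in the other samples, with Ambp, which had the highest counts, at 762 in STING 4. Of these markers 2 of 14 passed without adjustment as higher and 0 as lower, against 17.7% and 1.33% of the panel, with a median log2 fold change of 1.82. Those 2 were Ambp and F12, at 4.88 and 2.51, and without STING 4 they stood at 0.18 and 0.52 (adjusted p = 0.935 and 0.717, edgeR) and neither passed without adjustment. The part of these markers in the Cd1d1 value of STING 4 was not tested. Cd1d2, a close copy of Cd1d1, has its own probe on the panel, and cross-binding between the probes was not tested. Cd207 had raw counts of 3 to 8 in the PBS tumors, none above the background of its sample, and of 2 to 10 in the STING tumors, 2 of them above it. Its log2 fold change was 0.36 (SE 0.54, edgeR, Benjamini-Hochberg adjusted p = 0.804), and 0.14 without STING 3 and 0.71 without STING 4.

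**Figure D2:**
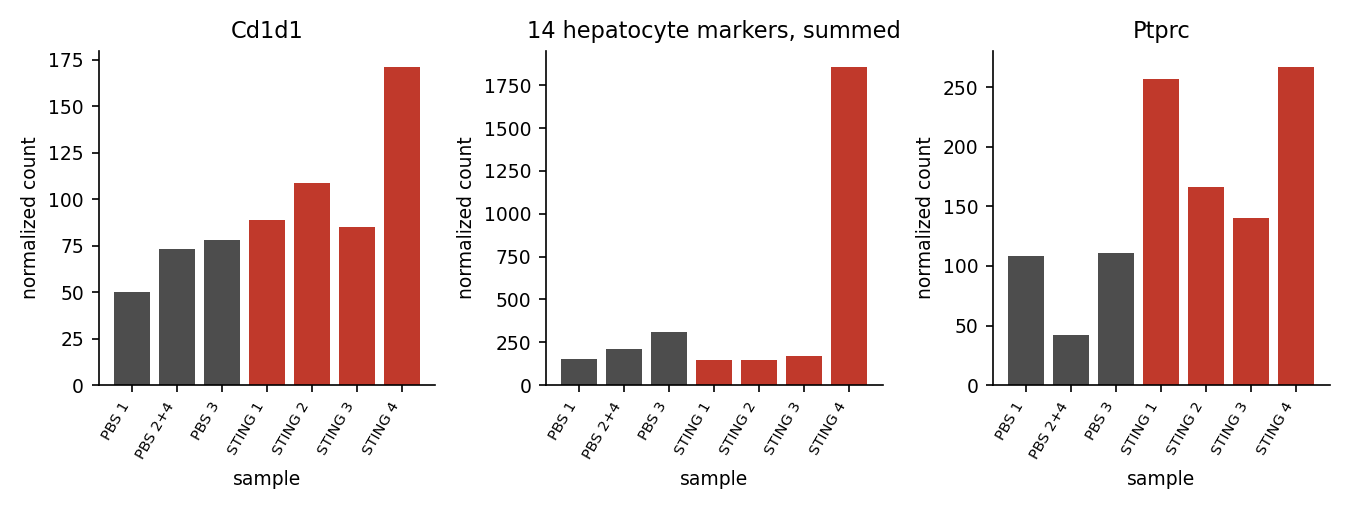
Normalized counts of Cd1d1 (left), of the 14 hepatocyte markers summed (middle) and of Ptprc (right) in each sample, with PBS samples in gray and STING samples in red. Cd1d1 is highest in STING 4 at 171, where the hepatocyte markers sum to 1859, while Ptprc stands at 267 there and at 257 in STING 1.

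The genes were then set against Ptprc, which encodes the leukocyte marker CD45. Ptprc had normalized counts of 108, 42.0 and 111 in the PBS samples and of 257, 166, 140 and 267 in the STING samples, a log2 fold change of 1.24 (SE 0.38, edgeR, Benjamini-Hochberg adjusted p = 0.181). On the same scale, the Wald test of DESeq2 gave 1.25 and called Ptprc (adjusted p = 0.0284). With the Ptprc count as the scale, the log2 fold change of Itgax was 0.74 (SE 0.54), that of Xcl1 0.54 (SE 0.53) and that of Cd83 0.20 (SE 0.43), with adjusted p of 0.249, 0.386 and 0.700 (edgeR, Benjamini-Hochberg). Each of these differences was smaller than with the housekeeping scale, and the groups overlapped in all 3. Without STING 2, Xcl1 stood at 0.050, and without PBS 1 Itgax stood at 0.37. Cd1d1 turned from 0.76 to -0.75 relative to Ptprc (SE 0.46, edgeR, Benjamini-Hochberg adjusted p = 0.177), and to -0.057 with PBS 2 and PBS 4 left out. Per 100 Ptprc counts, Flt3l stood at 44.4, 119 and 43.5 in the PBS samples and at 16.4, 36.0, 30.7 and 15.8 in the STING samples. All 4 STING samples lay below every PBS sample, and the PBS 2 and 4 mean stood far above the other controls. Flt3l fell by 1.45 on the log2 scale relative to Ptprc (SE 0.48, edgeR, Benjamini-Hochberg adjusted p = 0.0419). Flt3 stood at 10.3, 38.9 and 11.0 per 100 Ptprc counts in the PBS samples and at 4.55, 3.68, 11.7 and 2.31 in the STING samples. It fell by 1.74 (SE 0.64, edgeR, Benjamini-Hochberg adjusted p = 0.0476), with STING 3 among the controls and the other STING samples below them.

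These calls have to be read against the panel, in which the median log2 fold change relative to Ptprc was -1.14. Of 749 genes, 259 passed adjustment as lower (34.6%) and 3 as higher (0.401%), against 2 and 0 of the 9 genes. Without adjustment, 420 passed as lower (56.1%) and 6 as higher (0.801%), against 3 of the 9, Flt3, Flt3l and Lamp3, and 0. The share of the 9 genes that passed as lower relative to Ptprc was therefore no larger than that of the panel, and 6 of the 9 lay above the panel median. With PBS 2 and PBS 4 left out, in which Ptprc was lowest, 0 of the 9 genes and 3 of the 749 passed, and Flt3l and Flt3 were at -0.85 and -0.997 (adjusted p = 0.170 and 0.216, edgeR). Without STING 1, without STING 2 or without STING 4 neither gene passed, and 0, 0 and 8 of the 749 genes did, while Flt3l stood at -1.30, -1.69 and -1.28 and Flt3 at -1.67, -1.62 and -1.41. Without PBS 1, without PBS 3 or without STING 3 both genes passed, as did 398, 240 and 367 of the 749 genes in all.

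**Figure D3:**
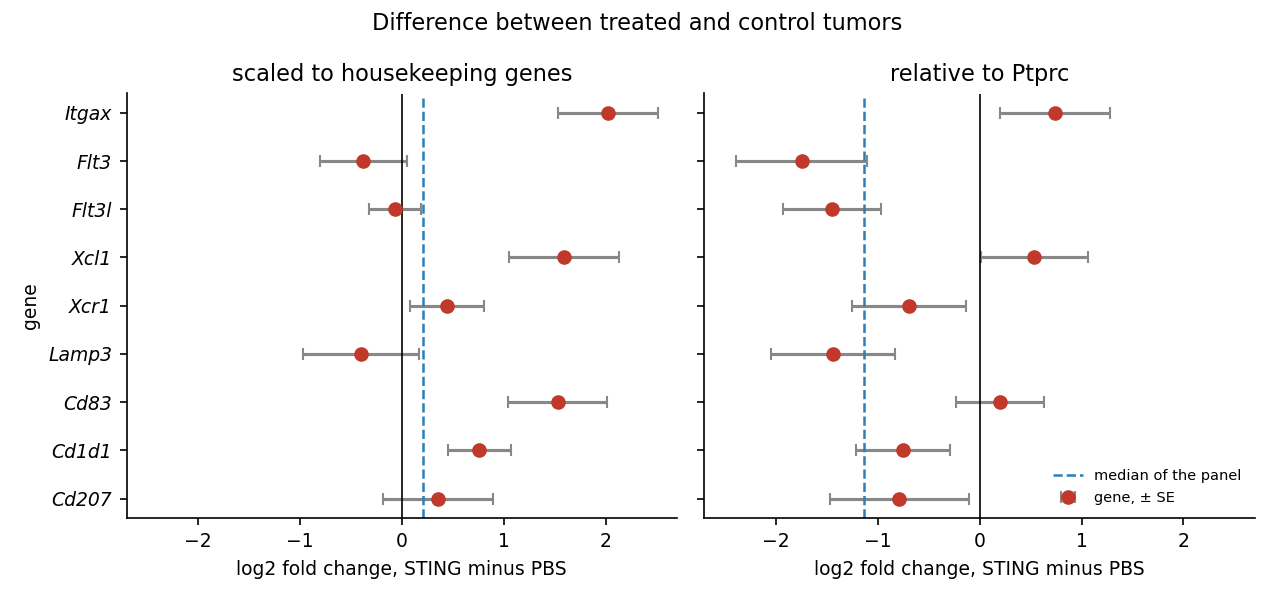
Log2 fold change (STING minus PBS) of each of the 9 genes with its SE, scaled to housekeeping genes (left) or relative to Ptprc (right); the dashed line is the panel median, 0.21 on the left and -1.14 on the right. Itgax, Xcl1 and Cd83 lie to the right of the median on both scales, and Flt3, Flt3l and Lamp3 to the left of it.

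For the genes with a mean count above background, the pattern over the 7 samples was compared as the root mean square difference of log2(normalized count + 1) centred on each gene's mean. Itgax is drawn in the figure without distances in the text, because none of its PBS tumors exceeded background. Among the other 5, Flt3l and Cd1d1 stood at 0.55, farther apart than the medians of 0.46 and 0.51 between either gene and the 518 candidates on the panel. Xcl1 and Cd83 stood at 0.66, under their medians of 0.99 and 0.81, and the most distant were Flt3 and Xcl1 at 1.43. Nearest to Cd83 were Cd8a (0.14), Klrk1 (0.21) and Slamf7 (0.26). Nearest to Xcl1 were Cxcl11 (0.43), Cxcl16 (0.44) and Cx3cr1 (0.46). Xcl1 was highest in STING 2, while Itgax and Cd83 were highest in STING 1. Nearest to Cd1d1 were C4b (0.26), Socs1 (0.26) and Irak1 (0.27), and all 4 were highest in STING 4. Nearest to Flt3 were Il1r2 (0.15), Mfge8 (0.29) and Cd81 (0.30), with a median of 0.67, and nearest to Flt3l were Smad4 (0.10), Rrad (0.12) and Rps6 (0.13), genes that hardly varied between samples.

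**Figure D4:**
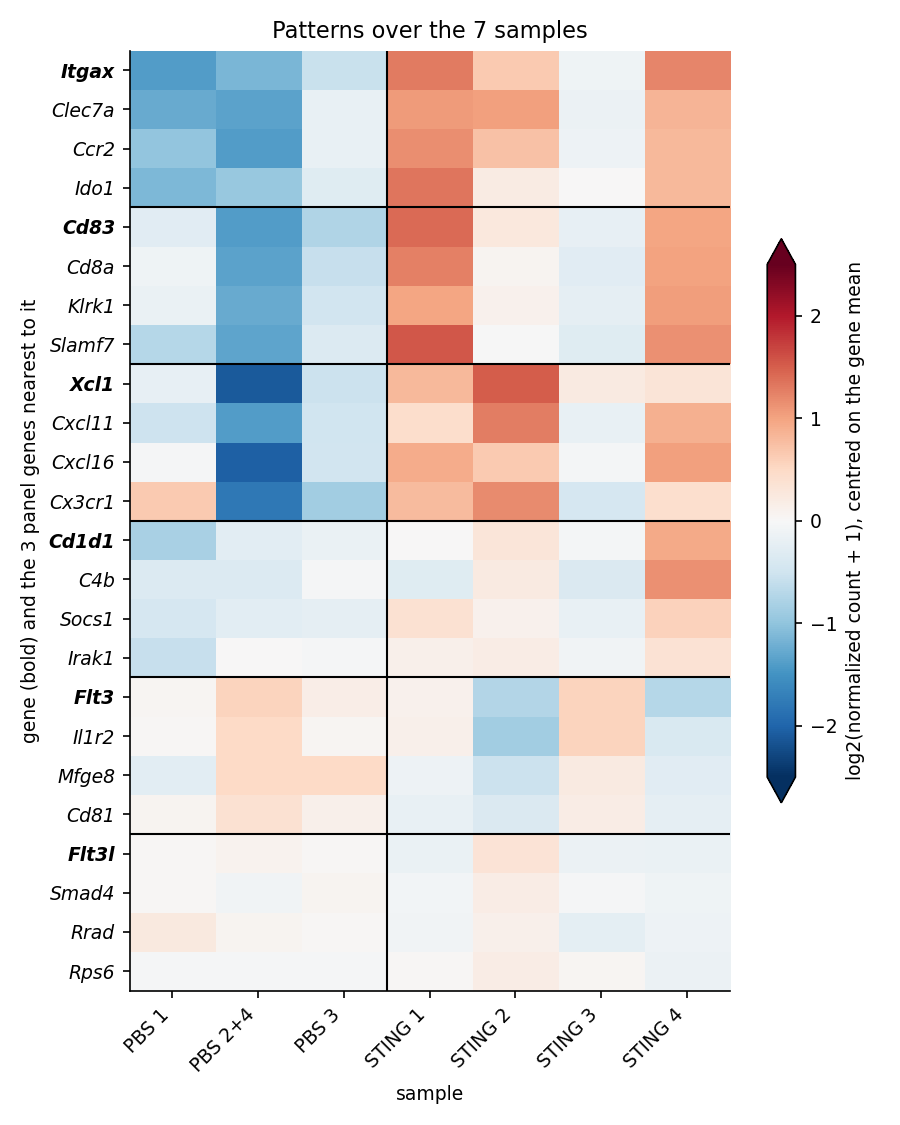
Log2(normalized count + 1) centred on each gene's mean, by sample (columns), for the 6 genes with a mean count above background (bold) and the 3 panel genes nearest to each; red is above and blue below the mean. Red is strongest in STING 1 and STING 4 for Itgax and Cd83 and in STING 2 for Xcl1, and Flt3l is nearly flat.

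Other genes of the dendritic cell system were taken from lists, whose counts stand beside 17.7% of the panel as higher and 1.33% as lower without adjustment and a panel median of 0.21. Of 12 genes of dendritic cell lineage and growth factors on the panel, Itgax, Flt3 and Flt3l among them, 2 passed without adjustment as higher (Itgax and Irf8) and 0 as lower, with a median log2 fold change of 0.29, a share as higher close to that of the panel. Irf8, a transcription factor listed both for the lineage and for cross-presenting dendritic cells, had a log2 fold change of 0.69 (SE 0.28). That of Csf2rb, the shared receptor chain of GM-CSF, was 0.58 (SE 0.41). Of 5 genes associated with cross-presenting dendritic cells, Xcr1 included, 2 passed as higher (Irf8 and Cd8a) and 0 as lower, with a median of 0.48. Tlr3 stood at 0.48 (SE 0.24) and Itgae at -0.28 (SE 0.34), and Xcr1, at 0.44, had a mean count under background. Positive values were found in 4 of the 5. Cd8a, which CD8+ T cells also carry, stood at 1.26 (SE 0.48). For dendritic cells of the other conventional type and of monocyte origin, 1 of 6 passed as higher (Ccr2, 1.48, SE 0.40) and 0 as lower, also close to the panel share, with a median of 0.46, and Itgam stood at 0.48 (SE 0.41). Of 6 genes listed for plasmacytoid dendritic cells, 3 passed as higher and 0 as lower, with a median of 0.56. Those 3 were Bst2 at 0.46 (SE 0.17), Irf7 at 0.62 (SE 0.24) and Tlr9 at 1.16 (SE 0.43). Tlr7 stood at -0.082 (SE 0.37), and 5 of the 6 had a positive value. Of 21 maturation and migration genes, Cd83 and Lamp3 included, 6 passed as higher and 0 as lower, with a median of 0.41. Cd274, the gene of PD-L1, stood at 1.23 (SE 0.35) and Cd40 at 0.96 (SE 0.27), the 2 genes of this list with the lowest p. Ccr7 stood at 0.34 (SE 0.45), and Ccl17 and Ccl19 at -0.11 (SE 0.44) and -0.23 (SE 0.55). Lamp3, Il12b and Tnfsf4, which averaged counts under background, were also negative, while 16 of the 21 were positive. Of 8 MHC class II genes, 5 passed as higher and 0 as lower, with a median of 1.66, and H2-Eb1 and Cd74 stood at 2.25 (SE 0.47) and 2.48 (SE 0.57). No gene of these lists passed adjustment in edgeR on the housekeeping scale with all samples. Which cells carried the RNA of the listed genes was not tested. Of the members and the lowest-p genes of these lists, the Wald test of DESeq2 called Cd83, Ccr2, Cd274, Cd40, H2-Eb1 and Cd74. Without STING 3, edgeR called H2-Eb1. Without adjustment, Irf8 and Bst2 passed in 12 of 21 alternatives each, Cd8a in 15, Tlr9 in 17 and Cd74 in 20, and Bst2 stood at 0.20 with TMM scaling and 0.19 with the size factors of DESeq2. Csf2rb and Itgam stood at 1.08 and 0.86 without PBS 3 and at 0.25 and 0.13 without PBS 2 and PBS 4.

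For the cells that make XCL1, 3 of 12 genes listed for NK cells passed without adjustment as higher and 0 as lower. The panel shares were 17.7% and 1.33%. The list had a median log2 fold change of 0.20, beside 0.21 for the panel and 1.59 for Xcl1. Those that passed were Klrc1 at 1.06 (SE 0.37), Klra2 at 1.33 (SE 0.47) and Klrk1 at 1.16 (SE 0.41). Ncr1 and Klrb1c stood at 0.099 and 0.014, and Eomes, Prf1 and Klra7 at -0.15, -0.37 and -0.42. Positive values were found in 9 of the 12. Whether cells other than NK cells carried these RNAs was not tested. Of 8 genes listed for CD8+ T cells, 4 passed as higher and 0 as lower, with a median of 1.03. Those 4 were Cd3g at 1.51 (SE 0.47), Cd8a at 1.26 (SE 0.48), Cd3e at 1.18 (SE 0.46) and Cd8b1 at 1.04 (SE 0.45). The CD3 genes are not limited to CD8+ T cells, so the list does not tell these from other T cells. Without adjustment, Klrc1 passed in 17 of 21 alternatives and Klra2 and Cd3g in 20 each. In the Wald test of DESeq2, Cd3g passed adjustment (adjusted p = 0.0273), and Klrc1 and Klra2 did not. The summed normalized counts of the NK list were 985, 818 and 991 in the PBS samples and 1402, 787, 1194 and 1501 in the STING samples, so STING 2, where Xcl1 was highest, had the lowest NK sum. Gzmb had the highest counts in that list, and single genes of it went both ways in STING 2. Klra2, Klrk1 and Klrc1 stood there at 128, 64.8 and 55.0, above every PBS sample (at most 103, 53.7 and 49.0). Prf1, Gzma, Eomes and Klra7 stood there at 105, 50.1, 28.1 and 11.0, below every PBS sample (at least 226, 65.3, 36.1 and 22.2). The CD8+ T cell list summed to 175, 119 and 207 in the PBS samples and to 432, 232, 220 and 403 in the STING samples, and STING 2 was not the highest there either. The part of either cell type in the Xcl1 values was not tested. Of 9 genes of the CD1d and NKT cell axis, Cd1d1 included, 3 passed as higher and 0 as lower, against the same panel shares, with a median of 0.26, among them Slamf6 at 1.62 (SE 0.39) and Ly9 at 0.80 (SE 0.33). Slamf6, like Itgax, exceeded background in none of the PBS tumors (raw counts of 4, 2, 8 and 1), and its value went from 0.45 in limma with a pseudocount of 20 to 2.57 after subtraction of the negative control mean. Ly9 passed in 12 of 21 alternatives.

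**Figure D5:**
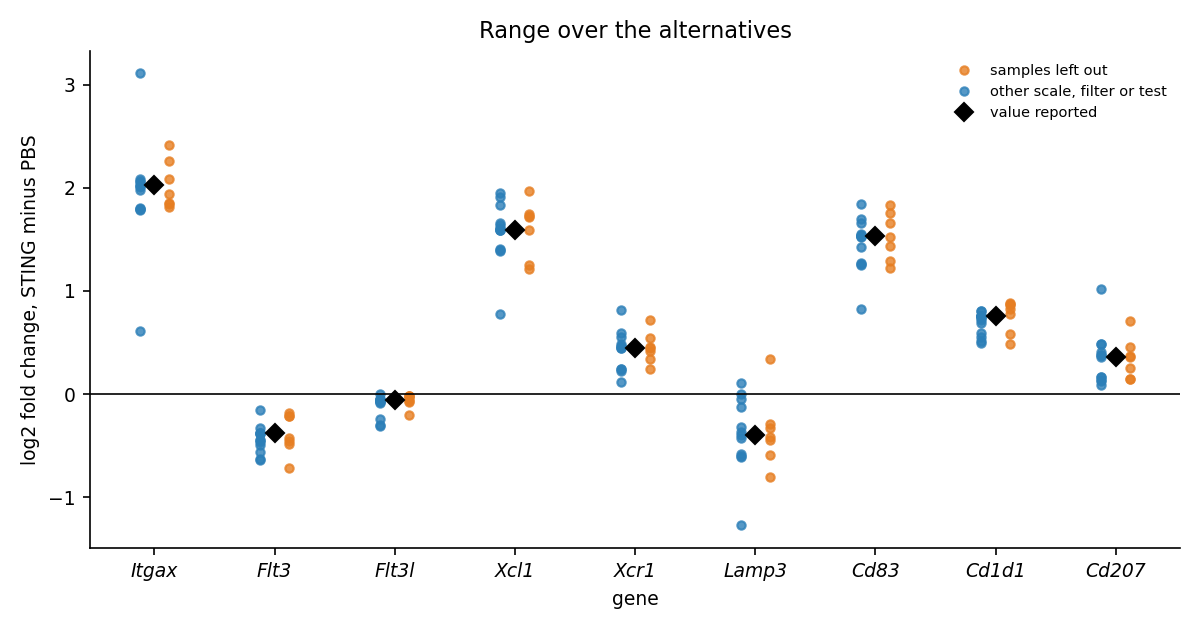
Log2 fold change (STING minus PBS) of each of the 9 genes as reported (black diamond), with other scales, filters or tests (blue) and with samples left out (orange). Itgax, Xcl1, Cd83 and Cd1d1 stay above 0 and Flt3 and Flt3l below it at every point, while Lamp3 lies on both sides.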

How the data were processed

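The authors extracted RNA from whole tumor with TRIzol, measured it with the PanCancer Immune Profiling panel for mouse (nCounter) and deposited raw counts of 784 probes per tumor (750 genes, 20 housekeeping, 8 negative and 6 positive controls), without scaling or background subtraction. The study normalized to housekeeping genes with nSolver. The lowest deposited count was 1, so a count of 1 cannot be told from none. The members and gene lists were chosen with earlier results of these data known. PBS 2 and PBS 4 were averaged, and the rounded mean was 1 sample. Library sizes were the geometric mean of the housekeeping probes, and edgeR 4.0.16 under R 4.3.3 compared the groups by its quasi-likelihood test over all 750 genes, unfiltered and adjusted by Benjamini-Hochberg. The same test used the Ptprc count as the library size over the other 749 genes. The script was tested on simulated counts. Besides the members, genes were selected by rule. These were Ptprc, the 2 genes of each list above background with the lowest p, and the 3 panel genes nearest in pattern to each member. With the members they made 52 genes, of which Cd22, Csf3r, Clec7a and Ido1 are not named in the text. Other genes were named for the highest counts of a list, as a close copy of a member, as exceptions within a list or to show the rest of a list. Alternatives were TMM, the size factors and Wald test of DESeq2 1.42.0, limma 3.58.1, the methods' t-test, other scales and filters, left-out tumors and a block. Alternatives for the comparison with Ptprc were added after seeing the data. Probe names were matched to RefSeq (GRCm38.p6), of which 727 matched through the transcript, 16 through the symbol and 1 through a former symbol, and 6 did not match. Figures were drawn with Python 3.11.15 and matplotlib 3.10.9.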

Additional observations from a re-analysis of the deposited data

Results flagged for a closer look

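In the STING group, 3 of the 52 selected genes, members included, had a tumor far from the other 3. This was judged by Dixon's ratio at its 95% limit, which divides a tumor's distance from its neighbor by the whole range of the 4. Chance flags about 1 in 20 groups, here 2.6. For Flt3l the ratio was 0.951 in STING 2, with 59.9 normalized counts against 42.0 to 42.9 in the other 3 tumors. For Ambp, a liver gene of the hepatocyte list, it was 0.988 in STING 4, with 762 normalized counts against 2.44 to 11.7. For F12, the gene of coagulation factor XII in the same list, it was 0.951 in STING 4, with 71.5 against 3.67 to 7.01. The PBS group, with 3 samples, was not examined in this way.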

How the results depend on the processing

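The log2 fold changes of Itgax (0.61 to 3.11), Xcl1 (0.77 to 1.97), Cd83 (0.83 to 1.84) and Cd1d1 (0.49 to 0.88) kept their sign under every alternative that gave a value, and their adjusted p lay at 0.0544 to 0.384, 0.0384 to 0.408, 0.0297 to 0.408 and 0.120 to 0.495. Itgax was not tested under the filter at 20 counts and had, like 214 of 750 genes, no adjusted p from DESeq2. The Wald test of DESeq2 raised the members past adjustment to 2, with Xcl1 at 1.60 and Cd83 at 1.54, and the panel genes to 52. The methods' t-test left 1 member past the unadjusted threshold (Itgax, not Xcl1, Cd83 or Cd1d1) and 87 panel genes as higher. Non-overlapping members numbered 2 (Itgax and Xcl1) with TMM, DESeq2 size factors and total count, against 70, 68 and 67 of 750 panel genes (9.33%, 9.07% and 8.93%), and 48, 52 and 37 panel genes did not overlap as lower. There 87, 81 and 68 panel genes passed without adjustment as higher and 40, 45 and 31 as lower. With PBS 2 and PBS 4 left out, 17 passed as lower. Leaving out 1 tumor at a time, the panel counts ranged from 77 to 153 higher, 7 to 21 lower and 0 to 7 past adjustment. Lamp3 reversed with limma and a pseudocount of 1 (0.0026), and leaving out 1 tumor gave -0.59 to 0.34, and leaving out PBS 2 and PBS 4 gave -0.80. Smad4 (-0.0079) reversed with positive control scaling (0.037) and with all 8 tumors separate (0.012), with -0.074 to 0.024 when 1 tumor was left out, and Rps6 (0.064) with TMM (-0.18), DESeq2 size factors (-0.19) and total count (-0.12). The members past adjustment relative to Ptprc went from 2 to 1 (Flt3l) with the filter at 20 counts, which does not test Flt3, to 0 with either pseudocount in limma or without PBS 2 and PBS 4, and to 0 to 3 when 1 tumor was left out. The panel genes past adjustment then numbered 244 of 518, and of 749 they numbered 11 and 0 with the pseudocounts of 1 and 20, 3 without PBS 2 and PBS 4, and 0 to 398 when 1 tumor was left out. Cd83 relative to Ptprc ranged from -0.0018 (without PBS 3) to 0.30 when 1 tumor was left out, Xcl1 from 0.050 (without STING 2) to 0.76 and Itgax from 0.37 (without PBS 1) to 0.86. The labels do not say whether the numbers pair the tumors. Same-numbered tumors deviated from their group means with r of -0.058, -0.087, -0.28 and -0.12 over 519 genes, and none matched its own number best. That check kept the near-identical PBS 2 and PBS 4 as separate tumors, and it cannot show that the design was unpaired. With the number as a block and all 8 tumors separate, 159 panel genes passed without adjustment as higher and Lamp3 (0.11) and Smad4 (0.0093) reversed. The causes were not tested. Counting error limits Xcr1, Lamp3, Cd207, the PBS values of Itgax and those of Xcl1 in PBS 2 and PBS 4.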

Other observations

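Other cell lists were measured in the same tumors, to be read beside 17.7% of the panel as higher and 1.33% as lower without adjustment. Of 11 macrophage markers on the panel, 2 passed without adjustment as higher and 2 as lower in the STING tumors, with a median log2 fold change of 0.25. Emr1, the gene of F4/80, stood at 1.29 (SE 0.43) and Cd163, a scavenger receptor, at -1.32 (SE 0.46). Emr1 passed adjustment in the Wald test of DESeq2 (adjusted p = 0.0373), and Cd163 did not. Of 9 B cell markers 1 passed as higher and 0 as lower, with a median of 0.34, and Blnk, an adaptor of B cell receptor signaling, stood at 0.95 (SE 0.32). Of 7 neutrophil markers 1 passed as higher and 0 as lower, with a median of 0.21, and Ncf4, a subunit of the phagocyte oxidase, stood at 0.66 (SE 0.26). Ncf4 passed in 13 of 21 alternatives and Cd163 in 18. Of 4 epithelial and tumor cell markers 0 passed in either direction, with a median of -0.074, and 2 of the 4 had a positive log2 fold change. Cdh1, which encodes E-cadherin, stood at -0.70 (SE 0.36) and Muc1 at 0.63 (SE 0.36). The shares as higher in the macrophage, B cell and neutrophil lists were close to or under that of the panel. The macrophage list, in which Cd68 had the highest counts, summed to 2290, 1238 and 3222 normalized counts in the PBS samples and to 3531, 2441, 2784 and 3355 in the STING samples. The sum was lowest in the mean of PBS 2 and PBS 4, the sample in which Ptprc, Xcl1, Xcr1, Lamp3 and Cd83 were also lowest.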
